A study of Rattus norvegicus with 12 samples.

Results

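The EGF family ligands are secreted or membrane-anchored growth factors that bind the ErbB receptor tyrosine kinases. The members followed here were the genes Areg, Ereg, Hbegf, Tgfa, Btc, Egf and Nrg1, chosen as members of that family, 7 of the 18166 genes with a named feature on the array. Each had 1 feature of its own. The cells were skin-derived precursors (SKPs), dermal precursors that grow as floating spheres, from newborn Sprague-Dawley rats. Dissociated secondary spheres were exposed for 24 h to 100 nM alprostadil (prostaglandin E1), to 100 nM trimebutine maleate (a gut motility drug) with 100 nM trametinib (an inhibitor of the kinase MEK), to 100 nM trimebutine maleate alone, or to vehicle. Each of the 4 groups had 3 arrays, from 3 independent isolates of cells, and no group received trametinib without trimebutine. All groups shared a growth medium that contains the EGF protein itself at 20 ng/ml and FGF2 at 40 ng/ml, so the ErbB pathway was supplied with a ligand throughout.

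Most of these ligands are made as transmembrane precursors, and proteases of the ADAM family cut them from the cell surface. EGF, amphiregulin (Areg), and TGF-alpha (Tgfa) bind EGFR. Betacellulin (Btc), epiregulin (Ereg) and HB-EGF (Hbegf) bind ERBB4 as well, and neuregulin 1 (Nrg1) binds ERBB3 and ERBB4. The activated receptors signal through RAS, RAF, MEK and ERK. In skin, ligands of EGFR are known for driving keratinocyte migration in wound closure, and neuregulin 1 for its action on Schwann cells and melanocytes.

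The stretches before the transcription start of Areg and Hbegf are shown because these genes had the largest differences with alprostadil and with trametinib among the members. The RefSeq promoter table (build GRCr8) held 5 of the 7 members, Areg, Hbegf, Tgfa, Btc and Egf. Each stretch has 300 bases and ends 50 bases after the start. Capitals mark matches, on either strand, to TGACGTCA, the cyclic AMP response element bound by CREB, to its core TGACG, to the AP-1 site TGANTCA, or to TATAAA, the TATA box. The core lies within the full element, so those matches overlap. The Areg stretch is chr14:17265592-17265891 and the Hbegf stretch is chr18:28390171-28390470, both on the minus strand and written 5′ to 3′.
Areg: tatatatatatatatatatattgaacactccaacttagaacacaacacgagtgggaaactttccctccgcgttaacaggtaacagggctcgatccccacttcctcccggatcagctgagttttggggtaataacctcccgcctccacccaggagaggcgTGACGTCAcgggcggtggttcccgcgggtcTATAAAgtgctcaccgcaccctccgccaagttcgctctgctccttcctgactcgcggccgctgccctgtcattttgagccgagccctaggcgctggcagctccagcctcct
Hbegf: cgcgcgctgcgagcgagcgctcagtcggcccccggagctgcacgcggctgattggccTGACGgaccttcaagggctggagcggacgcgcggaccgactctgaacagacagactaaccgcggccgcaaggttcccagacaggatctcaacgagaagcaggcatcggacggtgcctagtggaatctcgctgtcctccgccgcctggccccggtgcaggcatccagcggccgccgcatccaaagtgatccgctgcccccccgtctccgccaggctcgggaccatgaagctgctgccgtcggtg
Areg held a full TGACGTCA whose first base lies 91 bases before the start, and a TATAAA whose first base lies 61 bases before it. Of 33469 promoters of this length in the table, 1.83% held TGACGTCA and 14.2% held TATAAA. Hbegf held the core TGACG alone, 193 bases before the start, which 21.2% of promoters held. The AP-1 letters, present in 7.33% of promoters, were in none of the 5 stretches, and none of the 4 motifs was found in those of Tgfa, Btc and Egf. These matches are letters in the reference, and binding was not measured.

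Values are log2 expression on the array's scale, and levels of different genes are not set against each other. A gene was tested when its mean over the 12 arrays was at or above 5.83, the 25th percentile of the named features, and 13636 genes were. Btc, at a mean of 5.74, was under that limit, and the other 6 members passed it. A gene is called where limma's adjusted p over all genes tested is under 0.05. Members and gene lists were chosen with earlier results of these data known. Their counts are therefore set beside the share of all genes as description only. Arrays of the same replicate number deviated together, but the main fit has no term for that number. Values with that number as a block are given where they change the call of a member or the count of a list described. Mean levels of the dermal and SKP marker list ran from 11.40 to 11.58 over the 12 arrays, with 9 of 10 markers measured. Keratinocyte markers (8 measured) ran from 5.58 to 5.81, endothelial markers (5 measured) from 5.72 to 6.03 and mast cell markers (6 measured) from 5.52 to 5.99. Schwann cell markers (7 measured) ran from 8.46 to 8.66. Each list averages different genes, so these ranges show the spread over arrays and are not compared between lists. The mean of the 10 macrophage and leukocyte markers differed by replicate number. It ran from 7.30 to 7.56 in replicate 1, from 7.99 to 8.11 in replicate 2 and from 8.32 to 8.83 in replicate 3. Fewer cells of a type and less RNA per cell cannot be told apart in these bulk samples.

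**Figure D1:**
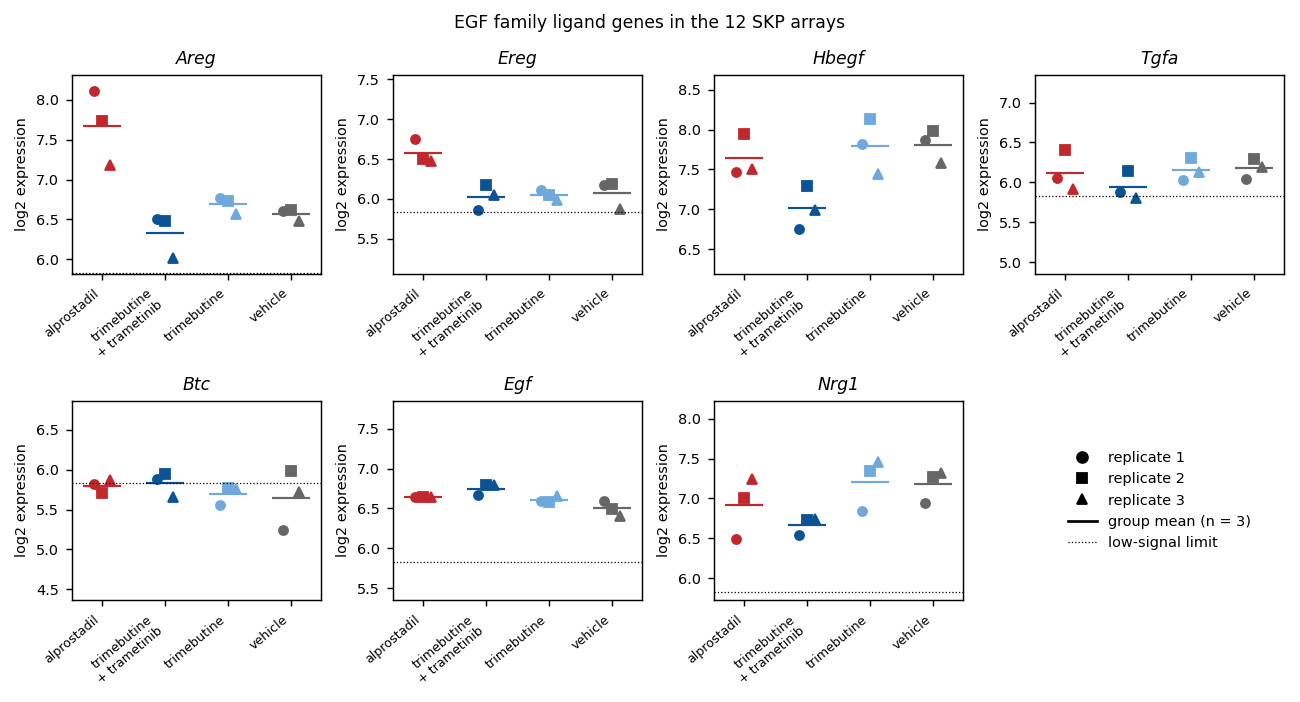
Log2 expression (y axis) of each of the 7 ligand genes on the 12 arrays, by treatment (x axis), with symbols for the replicate number, a line for the mean of 3 arrays and a dotted line at the low-signal limit of 5.83; every panel spans the same range. The 3 alprostadil arrays of Areg lie above all other arrays, and the 3 trimebutine with trametinib arrays of Hbegf lie below all other arrays.

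Alprostadil was compared with vehicle to see which ligands a prostaglandin drug changes. Areg rose, 2.16-fold, and was the only member called by the test without the block. Ereg, its neighbour on chromosome 14, was 1.41-fold higher and passed with the block. The call rate over all genes was low: 0.389% were called in either direction and 0.323% were called higher, and 1 of the 6 members tested was. Median differences were 0.04 for the 6 members and −0.01 for all genes tested.

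Areg, which encodes amphiregulin, had 8.11, 7.74 and 7.18 in alprostadil replicates 1, 2 and 3, against 6.61, 6.62 and 6.48 in vehicle replicates 1, 2 and 3. All alprostadil arrays lay above all vehicle arrays, and they were also far more spread. Group means were 7.68 ± 0.47 with alprostadil and 6.57 ± 0.08 with vehicle (SD, n = 3 each), a difference of 1.11 (SE 0.20, 95% interval 0.68 to 1.54, adjusted p = 0.0374). Within a replicate number the difference was 1.50, 1.12 and 0.70 for numbers 1, 2 and 3, so it had the same sign in all 3 isolates and differed in size. The block gave adjusted p = 0.00123. Without the block, leaving out any 1 of the vehicle arrays or of alprostadil replicates 1 and 2 ended the call (differences from 0.89 to 1.13, adjusted p from 0.106 to 0.154), and leaving out alprostadil replicate 3 did not (1.36, adjusted p = 0.00491). With the block it held in all 6 such runs (adjusted p from 0.00104 to 0.0119). Mean levels of the macrophage markers, which can also express ligands of this family, were 7.30 to 8.83 with alprostadil and 7.56 to 8.74 with vehicle. They were lowest in replicate 1, where the Areg difference was largest. None of 9 tested markers was called, but with the block Adgre1, the gene of the macrophage surface protein F4/80, was called lower (adjusted p = 0.00544, and 0.0951 without the block). Adgre1 had 6.46, 6.88 and 7.08 with alprostadil, against 7.73, 7.32 and 7.83 with vehicle. It was lower in all 3 isolates, most in replicate 1. Most of that list went the other way. Of the 9 macrophage and leukocyte markers tested, 6 differed by more than 0 and 3 by less (median 0.06). The part of these cells in the Areg difference was not tested.

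Ereg encodes epiregulin. It had 6.76, 6.50 and 6.48 in alprostadil replicates 1 to 3, against 6.18, 6.18 and 5.88 in vehicle replicates 1 to 3. The groups did not overlap, and the means were 6.58 ± 0.15 with alprostadil and 6.08 ± 0.17 with vehicle (SD, n = 3 each). The difference of 0.50 (SE 0.11, 95% interval 0.26 to 0.74) did not pass over all genes (adjusted p = 0.107). It passed with the replicate number as a block (adjusted p = 0.0307), where 1.17% of all genes were called higher, but in none of the 6 runs that left out an array as well (adjusted p from 0.0505 to 0.156). Differences within replicate numbers 1, 2 and 3 were 0.58, 0.32 and 0.60. In GRCr8 the protein-coding genes Btc, Areg, Ereg and Epgn (epigen, another ligand of EGFR) follow each other on chromosome 14. The outer genes of that row lay under the low-signal limit. Btc had 5.82, 5.71 and 5.87 with alprostadil, against 5.24, 5.98 and 5.72 with vehicle, and Epgn differed by 0.11, with groups that overlapped for both genes.

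None of the remaining members passed for alprostadil, with the block or without it. Egf had 6.64, 6.65 and 6.65 with alprostadil, against 6.60, 6.49 and 6.41 with vehicle, so the groups did not overlap, but the difference of 0.14 did not pass (SE 0.06, adjusted p = 0.682). Together with Areg and Ereg, 3 of the 6 members tested had all alprostadil arrays above all vehicle arrays, as did 5.41% of all genes. Nrg1 had 6.50, 7.01 and 7.24 with alprostadil, against 6.95, 7.26 and 7.32 with vehicle. These groups overlapped, and the difference was −0.26 (95% interval −0.69 to 0.16, adjusted p = 0.852). Hbegf had 7.47, 7.94 and 7.51 with alprostadil, against 7.86, 7.98 and 7.58 with vehicle, a difference of −0.17 (95% interval −0.60 to 0.26) with overlap. Tgfa had 6.05, 6.40 and 5.92 with alprostadil, against 6.04, 6.30 and 6.19 with vehicle, and these groups overlapped too, at a difference of −0.06 (95% interval −0.34 to 0.23).

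The combination was set against trimebutine alone, which isolates the addition of the MEK inhibitor on a trimebutine background. Hbegf fell to 0.581 times its trimebutine level and Nrg1 to 0.685 times. No member was called higher. So 2 of the 6 members tested were called lower, beside 16.6% of all genes lower, 16.8% higher and 33.4% in either direction, which is a high background. Areg joined Hbegf and Nrg1 in having all arrays of the combination below all of trimebutine, 3 of the 6 members beside 21.8% of all genes. Median differences were −0.29 for the 6 members and 0.03 for all genes tested.

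Hbegf encodes heparin-binding EGF-like growth factor, whose membrane precursor is released by shedding. It had 6.75, 7.29 and 6.99 in trimebutine with trametinib replicates 1 to 3, against 7.82, 8.13 and 7.44 in trimebutine replicates 1 to 3. Every array with trametinib lay below every array without it, those of alprostadil and vehicle included. The means were 7.01 ± 0.27 with the combination and 7.79 ± 0.35 with trimebutine (SD, n = 3 each), a difference of −0.78 (SE 0.20, 95% interval −1.21 to −0.36, adjusted p = 0.00902). Within replicate numbers 1, 2 and 3 the differences were −1.07, −0.84 and −0.45. This call held in all 12 runs that left out an array, 6 without the block (adjusted p from 0.00341 to 0.0396) and 6 with it.

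Nrg1, the neuregulin 1 gene, had 6.54, 6.72 and 6.74 with the combination, against 6.84, 7.34 and 7.45 with trimebutine. The groups did not overlap, with means of 6.67 ± 0.11 and 7.21 ± 0.33 for the combination and for trimebutine (SD, n = 3 each). The difference of −0.55 (SE 0.19, 95% interval −0.97 to −0.12) passed narrowly (adjusted p = 0.0495), and passed with the block (adjusted p = 0.000563). It was −0.31, −0.62 and −0.71 within replicate numbers 1, 2 and 3. Without the block, leaving out any 1 of the combination arrays or of trimebutine replicates 2 and 3 ended the call (differences from −0.58 to −0.43, adjusted p from 0.0770 to 0.157). With the block it passed in all 6 of those runs. Against vehicle the difference was −0.51 (adjusted p = 0.0614), and adjusted p = 0.00085 with the block.

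Areg and Tgfa were called lower by the fit with the block alone, which called 4 of the 6 members lower beside 20.8% of all genes. Areg had 6.50, 6.48 and 6.02 with the combination, against 6.77, 6.74 and 6.57 with trimebutine, so these groups did not overlap. The difference was −0.36 (SE 0.20, adjusted p = 0.195, and adjusted p = 0.0393 with the block). Tgfa, which encodes transforming growth factor alpha, had 5.88, 6.14 and 5.80 with the combination and 6.03, 6.31 and 6.13 with trimebutine. These arrays overlapped between groups but differed by −0.15, −0.17 and −0.33 within replicate numbers (mean −0.22, SE 0.13, adjusted p = 0.233, and adjusted p = 0.0335 with the block). Of the 3 arrays of Tgfa with the combination, 1 lay under the low-signal limit. Of the 6 block runs without an array, 1 still called Areg lower (without trimebutine replicate 1, adjusted p = 0.0432) and 1 still called Tgfa lower (without combination replicate 1, adjusted p = 0.0486). Ereg did not follow Areg here, with 5.86, 6.17 and 6.05 for the combination and 6.11, 6.05 and 5.99 for trimebutine, a difference of −0.02 (95% interval −0.26 to 0.22).

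Egf, the gene of the founding ligand, differed in the opposite direction. It had 6.66, 6.79 and 6.79 with the combination, against 6.59, 6.58 and 6.66 with trimebutine, a difference of 0.14 that did not pass (adjusted p = 0.113). Against vehicle, with 6.60, 6.49 and 6.41, it was 0.25 higher (SE 0.06, 95% interval 0.11 to 0.39, adjusted p = 0.00962), a 1.19-fold rise. In that comparison 17.5% of all genes were called higher and 17.5% lower. With the block, 1 member was called higher and 3 lower (Hbegf, Nrg1 and Tgfa), beside 22.1% of all genes higher and 21.1% lower. Hbegf was the other member called there without the block, at −0.80 (SE 0.20, adjusted p = 0.008). The Egf call held in the 6 runs without an array (adjusted p from 0.00659 to 0.0416) but not with the block and without vehicle replicate 3 (0.19, adjusted p = 0.0588). Both comparisons of the combination share the same treated arrays. Btc had 5.88, 5.94 and 5.66 with the combination, against 5.55, 5.77 and 5.76 with trimebutine and 5.24, 5.98 and 5.72 with vehicle, all around the low-signal limit.

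**Figure D2:**
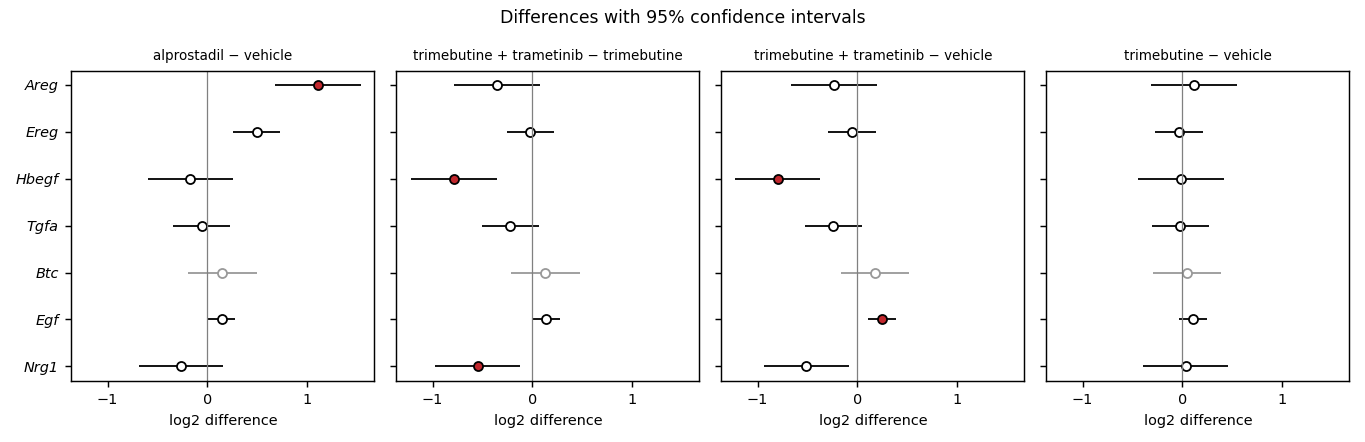
Log2 differences (x axis) of the 7 ligand genes (rows) for the 4 comparisons, with 95% confidence intervals as bars and filled points for adjusted p under 0.05 in the fit without the block; Btc, in grey, comes from a fit with no low-signal filter. Areg stands at 1.11 with alprostadil, Hbegf at −0.78 and Nrg1 at −0.55 with trametinib added, and all 7 lie between −0.03 and 0.12 with trimebutine alone.

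Trimebutine alone was compared with vehicle as the second drug of the design. No member was called, and 0% of all genes were by limma, with or without the block. Differences of the 6 members tested ran from −0.03 (Ereg) to 0.12 (Areg). At an unadjusted p under 0.05 no member passed either, and the lowest was that of Egf (0.11, unadjusted p = 0.113). With the block, whose intervals were narrower for all 6 but Egf, the 95% intervals were −0.15 to 0.40 for Areg, −0.25 to 0.22 for Hbegf and −0.16 to 0.23 for Nrg1, which bounds a change in these cultures and does not show that there was none.

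Whether a ligand responded differently to trametinib and to alprostadil was tested directly, as the trametinib difference minus the alprostadil difference, which share no array. Areg differed most, by −1.47 (SE 0.28, 95% interval −2.08 to −0.85, adjusted p = 0.00295). It was called higher with alprostadil, while its lower value with trametinib added was called only with the block. The Areg difference between responses held in all 12 runs without an array (adjusted p up to 0.00904). Ereg differed by −0.52 (SE 0.15, adjusted p = 0.0314). Ereg lost this call when alprostadil replicate 1, vehicle replicate 3, trimebutine replicate 1 or 2, or combination replicate 1 or 3 was left out (differences from −0.53 to −0.42, adjusted p from 0.0505 to 0.0720). Hbegf differed by −0.62 (adjusted p = 0.144, and adjusted p = 0.0100 with the block). So 2 of the 6 members were called lower, beside 10.8% of all genes lower and 11.1% higher, and 3 with the block, beside 15.2% of all genes. Tgfa (−0.16), Nrg1 (−0.28) and Egf (−0.00) did not pass, with adjusted p from 0.524 to 0.982.

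**Figure D3:**
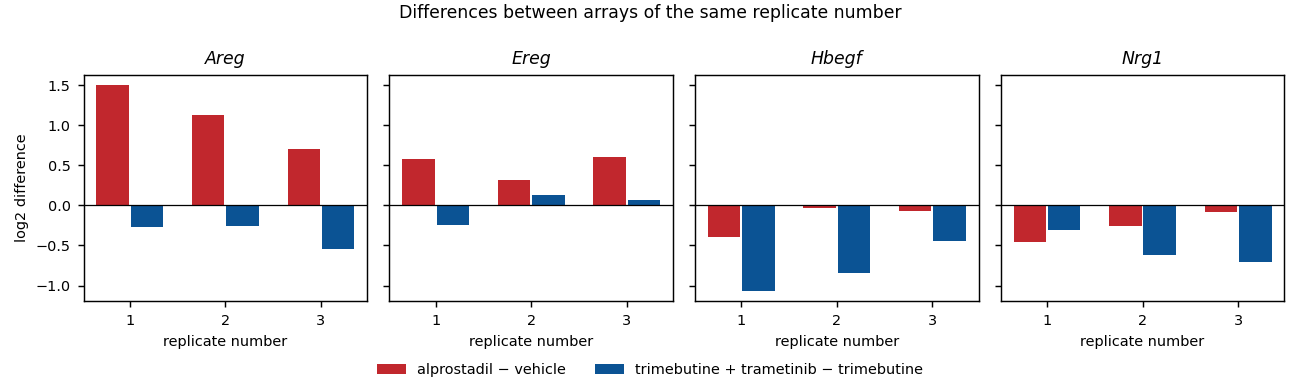
Log2 differences (y axis) between arrays of the same replicate number (x axis) for Areg, Ereg, Hbegf and Nrg1, with 1 bar for alprostadil minus vehicle and 1 for trimebutine with trametinib minus trimebutine. Areg is above 0 in all 3 numbers with alprostadil (1.50, 1.12 and 0.70) and below 0 in all 3 with trametinib added, and Hbegf and Nrg1 are below 0 in all 3 with trametinib added.

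Over the 4 groups, a moderated F test called Areg (adjusted p = 0.00104), Ereg (adjusted p = 0.00456), Hbegf (adjusted p = 0.0202) and Egf (adjusted p = 0.0494), 4 of the 6 members tested beside 32.5% of all genes. With the block Nrg1 passed too (adjusted p = 0.00138), Egf did not (adjusted p = 0.0503), and 42.7% of all genes passed. By level, Areg was highest with alprostadil, and the means of trimebutine (6.69 ± 0.11), vehicle (6.57 ± 0.08) and the combination (6.33 ± 0.27) followed within 0.36 of each other (SD, n = 3 each). Hbegf was highest in vehicle (7.81 ± 0.21), with trimebutine (7.79 ± 0.35) and alprostadil (7.64 ± 0.26) close below it and overlapping, and lowest with the combination (SD, n = 3 each). Nrg1 was highest with trimebutine and vehicle (7.18 ± 0.20), which overlapped, with alprostadil (6.91 ± 0.38) next and the combination lowest (SD, n = 3 each). Egf means lay within 0.25 of each other.

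Genes whose pattern over the 12 arrays was most like that of a called member by the F test without the block (so not Nrg1) were sought by the root mean square difference of their log2 deviations. Nearest to Areg were Lif (0.150), which encodes a cytokine of the interleukin-6 family, Giot1 (0.226) and F5 (0.234), the gene of coagulation factor V, where the deviations of Areg itself had a root mean square of 0.561. Nearest to Hbegf (0.397) were Mthfd1 (0.118), a folate enzyme gene, Firrm (0.128) and Pold3 (0.144), a DNA polymerase subunit gene. Nearest to Ereg (0.257) were Nek10 (0.103), Mindy1 (0.119) and Galnt1 (0.124), and nearest to Egf (0.103) were Mff (0.0540), Gdf11 (0.0548) and Hdhd5 (0.0552).

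Among the receptors, Egfr had 10.62, 10.36 and 10.07 with alprostadil, 10.44, 10.18 and 9.91 with the combination, 10.58, 10.12 and 9.87 with trimebutine, and 10.61, 10.22 and 9.97 with vehicle. The treatments overlapped, and no difference exceeded 0.10 in size in the 4 comparisons (adjusted p from 0.789 to 1.00). Erbb2, which encodes the co-receptor that binds no ligand itself, had 7.99, 7.81 and 7.91 with the combination and 7.72, 7.69 and 7.73 with vehicle. That difference of 0.19 did not pass (adjusted p = 0.0820, and adjusted p = 0.0645 with the block). Erbb3, a receptor for neuregulins, differed by at most 0.07 in size in these comparisons. Erbb4 lay under the low-signal limit, as did the other 4 ligand genes of the family, Epgn, Nrg2, Nrg3 and Nrg4, with group means from 4.85 to 5.68.

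Of 9 genes of ligand shedding tested, 5 fell and 2 rose with trametinib added (median −0.21), beside 16.6% of all genes lower and 16.8% higher. With the block 6 fell, the further gene being Rhbdf1 (−0.21, adjusted p = 0.0401). With alprostadil none was called, beside 0.389% of all genes. Adam8 (−1.29, adjusted p = 1.35e-05) and Adam12 (−0.82, adjusted p = 0.000169), genes of ADAM proteases, fell, as did Rhbdf2 (−0.49, adjusted p = 0.00341), whose iRhom2 protein brings ADAM17 to the cell surface. Timp3, the gene of a tissue inhibitor that also blocks ADAM17, rose (0.97, adjusted p = 0.00165). Adam17, the main sheddase of amphiregulin, HB-EGF and TGF-alpha, fell as well (−0.33, adjusted p = 0.0229) and was named for this role after its value was seen.

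Of 14 inhibitors of ErbB receptors tested, 6 fell and 3 rose with trametinib added (median −0.04), beside the same 16.6% and 16.8% of all genes. None was called with alprostadil, beside 0.389% of all genes. Errfi1 encodes MIG6, a feedback inhibitor that binds the kinase domain of EGFR. It had 9.90, 9.95 and 9.67 with the combination, against 11.52, 11.51 and 11.26 with trimebutine, a difference of −1.59 (SE 0.10, adjusted p = 5.1e-07) with no overlap. Lrig1, the gene of a transmembrane inhibitor of ErbB receptors, fell too (−1.09, adjusted p = 0.000177), as did Socs5 (−0.86, adjusted p = 5.7e-06), and Ptprk, a receptor phosphatase gene, rose (1.00, adjusted p = 1.57e-06). Among 14 adaptor and cascade genes tested, 6 rose and 2 fell (median 0.10), beside 16.8% of all genes higher and 16.6% lower. Braf (0.46), Ptpn11 (0.38) and Nras (0.38), which encode a RAF kinase, the phosphatase SHP2 and a RAS protein, rose, and the adaptor gene Shc1 (−0.36) fell.

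Of 20 genes read as output of ERK, 15 fell and 1 rose with trametinib added (median −0.76), beside 16.6% of all genes lower and 16.8% higher. Dusp5 (−3.00), Dusp6 (−3.23), Spry4 (−2.01) and Fosl1 (−1.71) were the leading genes by p, and they encode ERK phosphatases, a Sprouty inhibitor and a subunit of AP-1. With alprostadil 3 of the 20 rose, Lif (1.19), Phlda1 (1.09) and Ier3 (0.59), beside 0.323% of all genes. The ERK output list as a whole did not shift, with a median of 0.00045, 10 genes above 0 and 10 below. Errfi1 was 0.23 higher with alprostadil without passing (adjusted p = 0.682). Of 16 cyclic AMP and CREB targets, 5 rose with alprostadil, Nr4a1 (2.46), Pde4b (1.24), Pde4d (0.84), Crem (0.49) and Ppargc1a (0.60), beside 0.323% of all genes. With the block 9 rose, beside 1.17% of all genes, and the median was 0.49, beside −0.01 for all genes. With trametinib added this list split, with 7 rising, such as Nr4a3 (2.42) and Dusp1 (0.80), and 4 falling, such as Ptgs2 (−2.72) and Gem (−1.49), beside 16.8% of all genes higher and 16.6% lower. Trimebutine alone had no called gene in any of these lists. Because the lists were drawn up with earlier results known, their counts and medians describe them and test no excess over all genes.

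**Figure D4:**
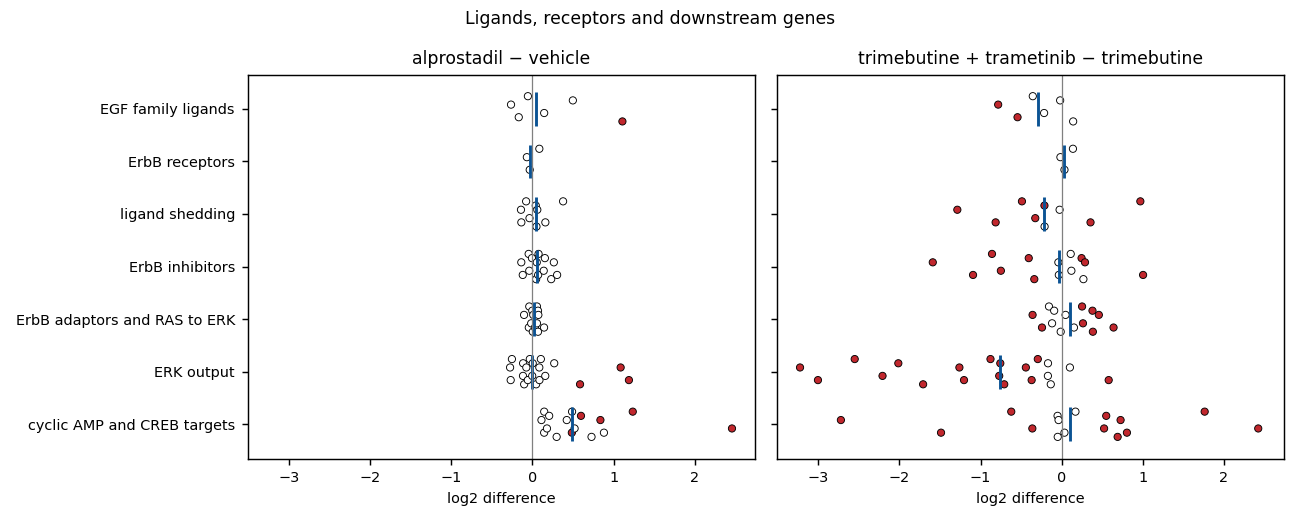
Log2 differences (x axis) of the tested genes of each list (rows) for alprostadil minus vehicle and for trimebutine with trametinib minus trimebutine, with 1 point per gene, filled where adjusted p is under 0.05 in the fit without the block, and a vertical bar at each list's median. With alprostadil the ErbB receptor, shedding, inhibitor and adaptor lists hold no filled point, and with trametinib added the ERK output list has its median at −0.76 and the ligands at −0.29.

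Some markers of the cells themselves and of other cell types also differed with trametinib added, where 33.4% of all genes were called. Of 9 dermal and SKP markers tested, 3 rose and 2 fell against trimebutine, beside 16.8% of all genes higher and 16.6% lower. Col1a1 (0.56), Col1a2 (0.59) and Thy1 (0.50) rose, and Pdgfra (−0.79) and Twist1 (−0.29) fell, while the list's mean was 11.47 to 11.58 with the combination and 11.42 to 11.50 with trimebutine. Of 9 macrophage and leukocyte markers tested, Cd68 fell (−1.03, adjusted p = 5e-05) and the other 8 were not called, beside the same shares. With the block Ptprc (−0.47, adjusted p = 0.00425) fell and Csf1r (0.31, adjusted p = 0.0307) rose as well. That fit called 20.8% of all genes lower, and 2891 of 13636 higher. The mean of that list was 7.35 to 8.32 with the combination and 7.49 to 8.77 with trimebutine. Of 7 Schwann cell markers tested, Pmp22 (0.90) rose and Egr2 (−1.98) fell, beside 16.8% of all genes higher and 16.6% lower. The other 5 were not called without the block. With the block S100b rose too (0.58, adjusted p = 1.45e-05, and 0.243 without the block), with 7.09, 7.86 and 8.15 for the combination and 6.56, 7.19 and 7.62 for trimebutine. None of the 5 keratinocyte, 3 endothelial and 3 mast cell markers tested passed in the 4 comparisons between groups, with or without the block. Krt15, a keratinocyte keratin gene, did pass the F test over the 4 groups (adjusted p = 0.0274). Under the low-signal limit, endothelial Tek had 6.01 to 6.33 with the combination, 5.72 to 5.86 with trimebutine and 5.37 to 5.83 with vehicle. With no low-signal filter, Tek (adjusted p = 0.0104) and keratinocyte Tp63 (adjusted p = 0.0447) passed the F test too. The part of these cells in the ligand values was not tested.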

How the data were processed

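RNA of 12 cultures was hybridised to Affymetrix Rat Gene 2.0 ST arrays. The deposited log2 values were made by the authors using oligo and its RMA method, per the submitters' processing notes. RMA evens out probe intensities between arrays, so an overall change in RNA content would be largely removed. Medians of the deposited values still ran from 6.41 to 6.50, and the number of arrays limits the precision. Symbols came from the platform annotation, updated to GRCr8 (18394 of 18511 features), and the brightest feature stood for a gene. Moderated, two-sided tests came from limma 3.58.1 under R 4.3.3, on all arrays at once (8 residual degrees of freedom, 6 with the replicate block), with Benjamini-Hochberg adjustment over 13636 genes. The fit without the block was tested on simulated data for the 4 comparisons between groups, with noise drawn independently for each array. The block, the difference between responses, the F tests and the search for like genes were not tested that way.

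Replicate numbers recur in each group, and the design states 3 isolates. The 18 pairs of same-numbered arrays correlated in their deviations (r from 0.21 to 0.808), unlike the 36 other pairs (−0.708 to 0.10). Deviations were taken from the group mean, so high correlation in same-numbered pairs forces lower values in the other pairs. The 36 pairs are therefore not separate evidence. The numbers were taken as pairing in the fit with the block only. Calls and counts without the block leave that pairing out. Members and lists were chosen with earlier results of these data known. Named genes are the members, the receptors, up to 4 called genes per list by smallest p, and the 3 genes most like a called member. Adam17, Rhbdf1, Ppargc1a, Errfi1 with alprostadil and the cell markers were added afterwards. Alternatives were filters, normalizations, the prior, the mean of features, the groups fitted, the block, and each array left out (also with the block, a choice made after seeing the data).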

Additional observations from a re-analysis of the deposited data

How the results depend on the processing

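The Hbegf differences for the combination, against trimebutine and against vehicle, passed under all 20 alternatives each (−0.96 to −0.62 and −0.94 to −0.67), and the Areg difference between responses under all 18. Counts of called members did not hold as well. With the replicate block the test called 2 for alprostadil (1 without it), 4 for the combination against trimebutine (2) and 4 against vehicle (2). With no low-signal filter it called 0 for alprostadil and 1 for the combination against trimebutine. A filter at 7.09, which leaves Hbegf alone among the members, gave 0 for alprostadil, 1 for the combination against trimebutine, 1 against vehicle, 0 for the difference between responses (2) and 1 over the 4 groups (4). Quantile normalization, centring on the median and fitting only the compared groups each gave 0 for alprostadil, where the Areg adjusted p was 0.0581, 0.0528 and 0.185, and centring gave 1 for the difference between responses. Leaving out 1 array gave 0 to 1 for alprostadil, 1 to 2 for the combination against trimebutine (2 to 4 with the block), 2 against vehicle (2 to 4 with the block), 1 to 2 for the difference between responses and 2 to 4 over the groups. The cause of these moves was not tested.

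Some uncalled values changed sign. Centring put Ereg at 0.010 for the combination against trimebutine and Egf at 0.022 for the difference between responses. Without 1 array, trimebutine against vehicle ranged from −0.131 to 0.021 for Ereg (−0.107 to 0.0098 with the block), −0.181 to 0.165 for Hbegf (−0.087 to 0.101), −0.095 to 0.042 for Tgfa (−0.066 to 0.050) and −0.085 to 0.219 for Nrg1 (−0.00038 to 0.089). Ereg ranged from −0.092 to 0.063 for the combination against trimebutine (−0.091 to 0.120 with the block) and −0.151 to 0.033 against vehicle (−0.127 to 0.089). Tgfa ranged from −0.195 to 0.048 for alprostadil (−0.117 to 0.023), and Egf from −0.054 to 0.042 for the difference between responses. With the block, trimebutine against vehicle also turned to 0.0060 (Ereg) and 0.083 (Hbegf) without vehicle replicate 1 and to 0.0034 (Tgfa) without trimebutine replicate 2, and alprostadil against vehicle to 0.014 (Tgfa) without vehicle replicate 3.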

Other observations

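Some of the ligands and the receptor gene Egfr also differed between the 3 replicate numbers. In the fit with the replicate number as a block, a moderated F test of that number, chosen after the values were seen, called 14.4% of all genes tested. Egfr had means of 10.56, 10.22 and 9.96 over the 4 arrays of replicates 1, 2 and 3 (adjusted p = 6.5e-05), a wider range than the 4 treatment means spanned. Nrg1 had 6.71, 7.08 and 7.19 (adjusted p = 0.00404), Hbegf had 7.47, 7.84 and 7.38 (adjusted p = 0.0149), Tgfa had 6.0, 6.29 and 6.01 (adjusted p = 0.0173) and Areg had 7.0, 6.89 and 6.56 (adjusted p = 0.0398). Ereg (adjusted p = 0.485) and Egf (adjusted p = 0.999) were not called, nor were the receptor genes Erbb2 (adjusted p = 0.665) and Erbb3 (adjusted p = 0.781). Nrg1 was lowest in the number where Egfr was highest, and the mean of the macrophage markers was lowest there as well. Of those markers Cd68 (adjusted p = 0.319) and Adgre1 (adjusted p = 0.0778) were not called. The Schwann cell marker S100b had 6.72, 7.36 and 7.73 (adjusted p = 3.9e-06), in the order of Nrg1. Egr2 was highest in replicate 1 (12.05, 11.51 and 11.56, adjusted p = 0.0163). The Schwann cell markers Mbp, Sox10, Ngfr, Pmp22 and Foxd3 were not called. What sets the isolates apart was not tested.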
